A study of Mus musculus with 6 samples.

Results

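The 31 genes described here are markers and regulators of mouse spermatogonia, chosen by gene name: 18 of stem and progenitor cells, 5 of differentiating spermatogonia, 4 expressed in spermatogonia of both kinds or more widely in the germ line, and 4 surface molecules used to enrich the stem cells. All 31 had probes, 41 in total, among the 55681 different non-control probes and 34844 gene or transcript names of the array. Whole testes of Gipr knockout mice (GIPR KO, n = 3) and of wild-type mice (n = 3), all C57BL/6 and 8 weeks old, were compared, with 1 Cy3-labelled array per mouse. Gipr encodes the receptor of the gut hormone GIP. The labels do not give the part of Gipr that was deleted, nor whether the animals were littermates.

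Spermatogenesis in the adult mouse starts from a small pool of undifferentiated spermatogonia on the basement membrane of the seminiferous tubule. The Sertoli cell factor GDNF, read by the co-receptor GFRA1 and the kinase RET, sustains this pool and drives the transcription factor genes Etv5, Bcl6b and Lhx1. Retinoic acid then moves progenitors into the differentiating state, marked by the receptor KIT, by SOHLH1 and SOHLH2 and by cyclin D2, and these cells divide on towards meiosis. Spermatogonia are a minor share of the cells of an adult testis, so most of the RNA measured came from other cells. In whole tissue, fewer cells of a type and less RNA per cell cannot be told apart.

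No spermatogonial gene passed the test of knockout against wild type. A probe was tested where it was well above background, as the scanner software defines it, on all 3 arrays of at least 1 genotype, and each gene was read by its brightest such probe. Of the 31 genes, 29 had a tested probe and 0 passed at an adjusted p under 0.05 over 26969 genes in limma, against 19 genes or 0.0705% of all tested. The adjusted p of the 29 lay between 0.597 and 0.997. At an unadjusted p under 0.05 there was 1 member, Pou5f1, higher in the knockout, where 7.48% of all genes tested reached that level (3.58% higher and 3.9% lower). Of the 29, 14 were higher and 15 lower in the knockout, with a median difference of -0.0020 (log2, knockout minus wild type) beside -0.0014 over all genes tested, 49.6% of which were higher. The largest difference was 0.47, again Pou5f1, and 25 of the 29 were smaller than 0.2 in size, as were 22255 of all 26969 genes.

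The intervals give the sizes of difference that fit the data for each gene's brightest tested probe, without adjustment for the number of genes. Standard errors of the differences ran from 0.067 to 0.198 (log2), with a median of 0.102. The 95% interval lay within a 2-fold change in either direction for 29 of 29 members and within a 1.5-fold change for 25, the exceptions being Gfra1, Kit, Thy1 and Pou5f1. On dimmer tested probes of Sall4 and Foxo1 the interval reached a ratio of 1.52 and 1.54. Ret and Nanos2, which were not tested, have no interval.

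**Figure D1:**
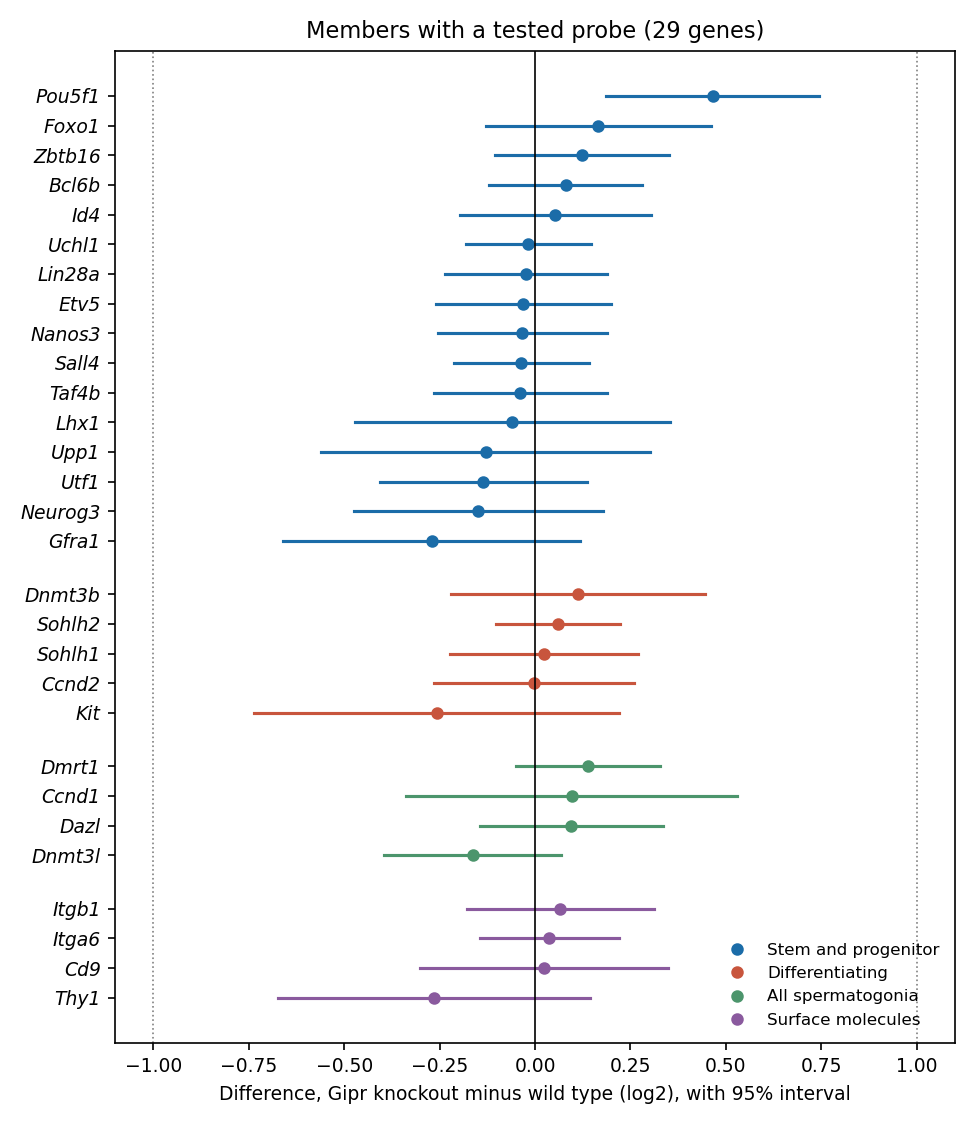
Difference between Gipr knockout and wild type (log2, x axis) for each of the 29 spermatogonial genes with a tested probe, in blocks by role; points are fitted differences, lines their 95% intervals and dotted lines a 2-fold change. Every interval except that of Pou5f1 crosses 0, and all lie inside the dotted lines.

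Signal of the targeted gene separated the genotypes. The Gipr probe read 155, 145 and 176 in the knockout arrays, against 782, 820 and 1043 in wild-type arrays (processed signal). Its difference was -2.48 ± 0.11 (log2, SE; limma adjusted p = 0.00184), and whether this probe lies in the deleted part is not known. Arrays resembled each other closely, with correlations of 0.996 to 0.997 within and 0.995 to 0.997 across genotypes over 26969 genes, which are not independent replicates. All 6 arrays lay on 1 slide, with knockouts in its row 1 and wild types in its row 2, so that effects of row and genotype cannot be told apart. Defining markers of spermatogonia (Zbtb16, Gfra1, Kit), meiotic cells (Sycp1, Sycp3), spermatids (Tnp1, Prm1), Sertoli cells (Wt1, Fshr) and Leydig cells (Cyp17a1, Star) were well above background on all 6 arrays. Not every marker was: the Sertoli gene Amh was well above background on 3 knockout arrays and 0 wild-type arrays. The labels give no word on separate litters or batches, so p-values measure the spread between these animals and arrays.

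Sequences of 3 probes are shown: that of Pou5f1, because it gave the largest difference, and 2 of Sall4, because they lie on the same transcript but only the first was well above background on enough arrays to be tested. The letters are those of the array files, 5′ to 3′, with mm9 positions.
Pou5f1, probe A_51_P202340, chr17:35647280-35647340, plus strand: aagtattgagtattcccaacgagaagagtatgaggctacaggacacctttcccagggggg
Sall4, probe A_51_P145260, chr2:168578172-168578231, minus strand: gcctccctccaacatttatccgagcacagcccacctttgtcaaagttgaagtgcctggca
Sall4, probe A_55_P2173546, chr2:168580437-168580496, minus strand: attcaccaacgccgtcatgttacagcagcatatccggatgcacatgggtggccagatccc
The Pou5f1 probe has 60 bases over a span of 61 positions, so it leaves out 1 genomic base. RefSeq (GRCm38.p6) names 7 pseudogenes after Pou5f1, and whether the probe also reads their transcripts was not tested. Over all 41 member probes the GC content ran from 33.3% to 55%, with a median of 43.3%.

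Among stem and progenitor genes the median difference was -0.032 (log2), with 5 of 16 tested members higher and 11 lower. How far testis cells other than spermatogonia add to the signal of these genes was not tested. In the tests and differences below, signals were first divided by the 75th percentile of their own array, and the processed signals quoted per array are those before that step. A signal can be set against that of the same probe on another array only.

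Of the GDNF receptor pair, Gfra1 had a low signal that was well above background on every array, and Ret was not detected. Gfra1, the co-receptor that binds GDNF, read 26.5, 23.1 and 34.6 in the knockout arrays, against 29.7, 30.2 and 40.2 in wild-type arrays (probe on chromosome 19, 58311604 to 58311663, mm9). Knockout replicates 1 and 2 lay below every wild-type array and knockout replicate 3 lay among them. The difference was -0.27 ± 0.16 (log2, SE; limma adjusted p = 0.693), a knockout to wild-type ratio of 0.829 with a 95% interval of 0.633 to 1.09. Without knockout replicate 3 it was -0.42, with an unadjusted p under 0.05 in limma (5.45% of all genes then) but an adjusted p of 0.872. Ret, the kinase that signals for the pair, was not well above background on any array, at 8.30, 5.87 and 3.67 in the knockout, against 9.54, 8.33 and 6.29 in wild type, and was not tested.

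Neither the genes downstream of GDNF nor Id4 passed the test. Etv5, an ETS factor that Sertoli cells also express, read 3502, 3479 and 3582 in the knockout arrays, against 3292, 3279 and 4174 in wild-type arrays. All 3 knockout arrays lay inside the wild-type range, and the difference was -0.031 ± 0.095 (log2, SE; limma adjusted p = 0.934). Bcl6b, a transcriptional repressor, differed by 0.080 ± 0.083, and Id4, an inhibitor of bHLH factors that marks stem cells, by 0.053 ± 0.103. For Id4, knockout replicate 2 (1666) lay below all other arrays, while replicates 1 (2280.3) and 3 (2237) lay above the wild type, which read 1926, 1998 and 1916. Lhx1, a LIM homeobox factor, differed by -0.059 ± 0.171 on its tested probe, and its other probe was not well above background on any array.

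Zbtb16 encodes PLZF, a repressor needed for self-renewal of the stem cells. It read 386, 361 and 415 in the knockout arrays, against 385, 349.7 and 322 in wild-type arrays (probe on chromosome 9, 48462419 to 48462478, mm9). The groups overlapped after scaling, and the difference was 0.12 ± 0.09 (log2, SE; limma adjusted p = 0.724). Its partner in undifferentiated spermatogonia, the zinc finger factor Sall4, differed by -0.036 ± 0.073 on its brightest probe. That probe, at position 2666 of the transcript, read 458, 409.7 and 397 in the knockout arrays, against 444, 413 and 423 in wild-type arrays. The probe at position 2094 read 9.77, 2.21 and 5.0 in the knockout, against 4.81, 2.83 and 4.14 in wild type and was well above background on 1 array only, knockout replicate 1. A further Sall4 probe, at position 4512, gave 0.10 ± 0.21, so its sign was opposite to that of the probe at position 2666.

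RNA-binding regulators of the undifferentiated state divided by detection. Nanos3 read 2063, 1910.1 and 1687 in the knockout arrays, against 1877, 1959 and 1877 in wild-type arrays, a difference of -0.033 ± 0.092 (log2, SE; limma adjusted p = 0.924). Knockout replicate 3 was the lowest array and replicate 1, in processed signal, the highest, so the groups overlapped. Lin28a, which blocks maturation of let-7 microRNAs, differed by -0.023 ± 0.088. Nanos2, which holds cells in the stem state, was not tested, since only knockout replicate 3 was well above background. Its signals were 6.19, 5.37 and 14.8 in the knockout, against 4.74, 7.21 and 7.5 in wild type. Nanos2 lies near the targeted locus, its probe on chromosome 7 at 19574205 to 19574264 (mm9), 168 kb from the Gipr probe. The other members on that chromosome, Utf1 and Ccnd1, lie 127 and 132 Mb from it.

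Pou5f1, which encodes the pluripotency factor OCT4, was the member with the lowest p. It read 108, 107.4 and 122 in the knockout arrays, against 69.0, 90.5 and 83.5 in wild-type arrays. Each knockout array was above each wild-type array. The difference was 0.47 ± 0.12 (log2, SE), a ratio of 1.38 with a 95% interval of 1.14 to 1.68 (limma unadjusted p = 0.00609, adjusted p = 0.597). It ranked 270th of 26969 genes by p. Over 16 other settings its difference ran from 0.27 to 0.56, its unadjusted p from 0.00260 to 0.0254 and its adjusted p from 0.216 to 0.872.

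The remaining stem and progenitor genes overlapped between genotypes. Foxo1, a forkhead factor whose nuclear form marks stem cells, had 2 tested probes with like differences of 0.17 and 0.16 (log2). Its brighter probe read 835, 644 and 925 in the knockout arrays, against 712, 732 and 655 in wild-type arrays, so by this signal knockout replicate 2 was the lowest of the 6 and replicates 1 and 3 the highest. Without knockout replicate 2 its difference was 0.28, with an unadjusted p under 0.05 in limma (14.8% of all genes then) and an adjusted p of 0.315. Neurog3, a bHLH factor of progenitors, differed by -0.15 ± 0.13 (SE), and Utf1, a chromatin-bound protein, by -0.14 ± 0.11. Upp1, a uridine phosphorylase, differed by -0.13 ± 0.18. Uchl1, a deubiquitinase used as a spermatogonial stain, and Taf4b, a germ cell subunit of TFIID, were at -0.018 ± 0.068 and -0.038 ± 0.094. The 5′ probes of Neurog3 and Upp1 were not well above background on any array.

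Among differentiating genes the median difference was 0.024 (log2), with 3 of 5 higher and 2 lower. Kit, the receptor of stem cell factor and the classical mark of this stage, read 562, 691 and 914 in the knockout arrays, against 829, 720.3 and 985 in wild-type arrays (mean of 2 spots of 1 probe, chromosome 5, 76052394 to 76052453, mm9). Knockout replicates 1 and 2 lay below every wild-type array, replicate 1 furthest, and replicate 3 lay within the wild type. The difference was -0.26 ± 0.20 (log2, SE; limma adjusted p = 0.726), a ratio of 0.836 with a 95% interval of 0.601 to 1.16. Without knockout replicate 1 it was -0.064, and without knockout replicate 3 it was -0.43 (adjusted p = 0.963 and 0.872).

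Leydig cells also express Kit. The summed signal of 11 tested Leydig markers was 54.8 to 61.9 in the knockout arrays, against 65.0 to 69.0 in wild-type arrays (multiples of the 75th percentile signal), and 10 of the 11 were lower in the knockout, with 0 passing in limma and a median of -0.26 (log2). The sums of 19 niche genes (10.1 to 11.37 in the knockout, against 11.42 to 11.9 in wild type) were also lower without overlap. So were those of 18 further spermatogonial genes (23.1 to 27.9, against 29.2 to 30.3), both lists described below. All other lists overlapped in their sums. The part of Leydig cells, or of any other cells beside spermatogonia, in the Kit reading was not tested. Measured from its own 6-array mean, the median Leydig marker was at -0.013, 0.029 and -0.40 (log2) in knockout replicates 1, 2 and 3, against 0.12, 0.22 and 0.12 in wild-type replicates 1, 2 and 3.

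The regulators of this step overlapped between genotypes. Sohlh1 and Sohlh2 are bHLH factors that promote Kit expression and the loss of stem cell genes. Sohlh1 read 1155, 1121 and 1444 in the knockout arrays, against 1140.5, 1179.6 and 1279 in wild-type arrays. Its difference was 0.024 ± 0.102 (log2, SE; limma adjusted p = 0.953), with knockout replicates 2 and 3 the lowest and highest in processed signal. Sohlh2 gave 0.061 ± 0.067. Dnmt3b, a de novo DNA methyltransferase that rises at differentiation, had 3 tested probes that gave 0.11, 0.12 and 0.11, and Ccnd2, cyclin D2, gave -0.0020 ± 0.109.

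Genes shared by spermatogonia of both kinds had a median difference of 0.095 (log2), with 3 of 4 higher. Whether testis cells other than spermatogonia add to the signal of these 4 genes was not tested. Dmrt1, which keeps spermatogonia from entering meiosis too early, read 423, 379.98 and 450.4 in the knockout arrays, against 389.6, 379.8 and 355 in wild-type arrays. After scaling, each knockout array was above each wild-type array, although in processed signal knockout replicate 2 lay among the wild type. Its difference was 0.14 ± 0.08 (log2, SE; limma adjusted p = 0.687). Pou5f1 and Dmrt1 were the 2 members whose genotypes did not overlap, both higher in the knockout, and 0 were lower without overlap. Over all genes tested 12.9% did not overlap, 6.71% higher and 6.22% lower.

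Dazl, an RNA-binding protein of the germ line, read 2172, 1822 and 2486 in the knockout arrays, against 1917, 2049 and 1991 in wild-type arrays. The knockout held both the lowest and the highest array, and the difference was 0.095 ± 0.10 (log2, SE; limma adjusted p = 0.793). Ccnd1, cyclin D1, spread the same way in processed signal and gave 0.096 ± 0.179. Dnmt3l, the cofactor of de novo DNA methylation in germ cells, gave -0.16 ± 0.10.

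Surface molecules had a median difference of 0.031 (log2), with 3 of 4 higher. Somatic cells of the testis carry them too, so their signal is not that of spermatogonia alone. Thy1, by which stem cells are often sorted, read 77.4, 63.5 and 92.7 in the knockout arrays, against 110.2, 87.5 and 79.3 in wild-type arrays. Knockout replicate 2 was the lowest and wild-type replicate 1 the highest of the 6, and the difference was -0.26 ± 0.17 (log2, SE; limma adjusted p = 0.704). The laminin receptor chain Itga6 and its partner Itgb1 each had 2 tested probes, which gave 0.038 and 0.059 for Itga6 and 0.067 and 0.11 for Itgb1. Cd9, a tetraspanin, gave 0.024 ± 0.134.

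**Figure D2:**
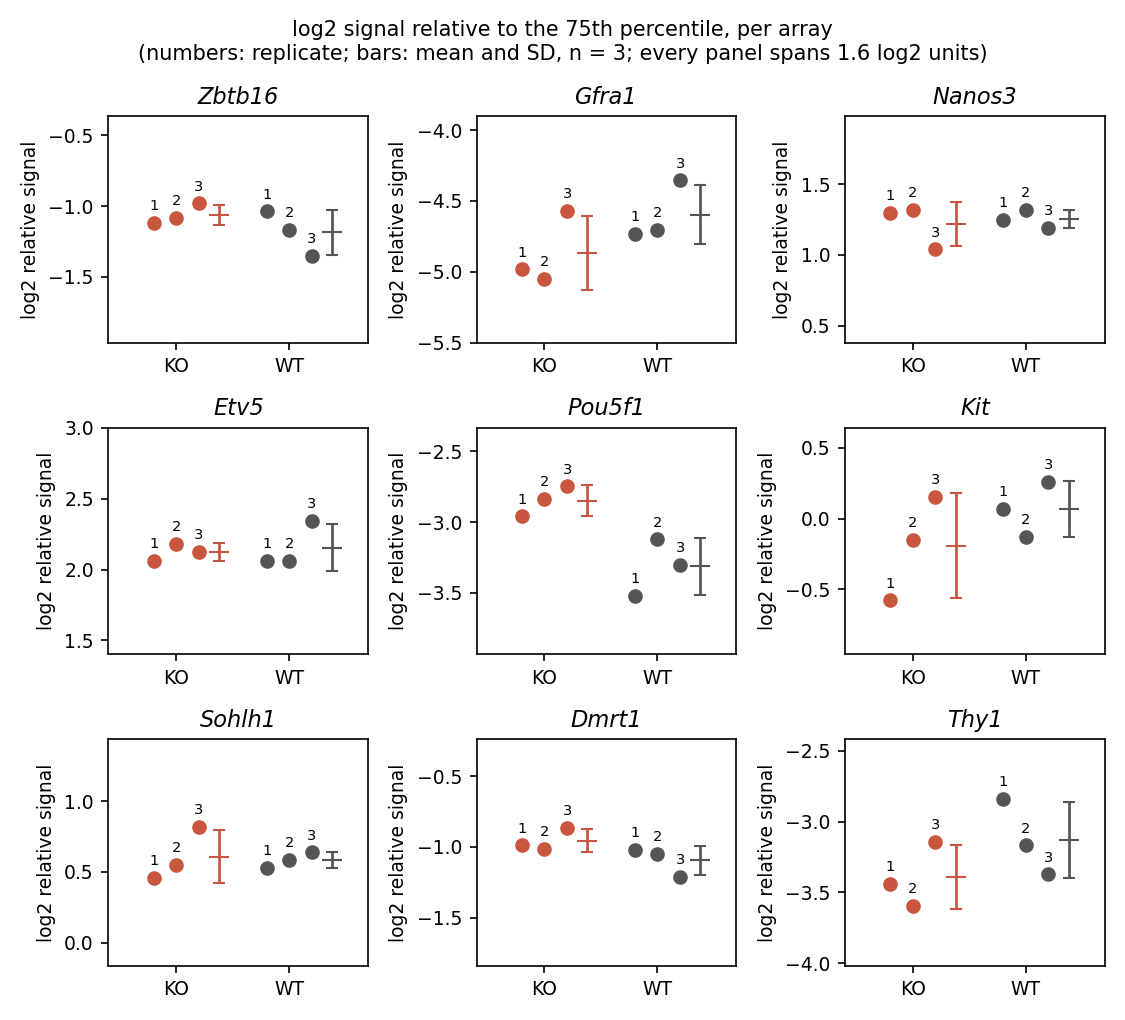
log2 signal relative to the 75th percentile of the array (y axis, every panel 1.6 units high) for 9 members in the knockout (KO) and wild-type (WT) arrays; numbered points are animals, bars the mean and SD (n = 3). The genotypes are apart for Pou5f1 and, narrowly, for Dmrt1, and overlap for the other 7 genes. For Dmrt1 the lowest knockout array was at -1.012 and the highest wild-type array at -1.020 (log2).

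Probes of the same gene were also compared. Of the 41 member probes, 35 were tested, 20 higher and 15 lower (51.6% of all tested probes were higher). In limma 0 of the 35 passed over 38884 probes (0.0463% of all probes passed), 1 had an unadjusted p under 0.05 (7.66% of all probes) and 2 did not overlap (13.2%). Of the 8 genes with more than 1 probe, 5 had more than 1 tested, and Sall4 was the only 1 of these whose probes differed in sign.

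Within the knockout group the tested members were uneven. Knockout replicate 3 was the highest of the 6 arrays for 14 of 29 members (48.3%), against 20.8% of all genes tested, and 22 of 29 stood above their own mean there, against 45.5% of all genes. Measured from its own 6-array mean, the median member in knockout replicates 1, 2 and 3 was at 0.0060, -0.074 and 0.14 (log2), and in wild-type replicates 1, 2 and 3 at -0.00023, 0.030 and -0.050. Both the highest and the lowest array were thus knockouts.

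The excess in knockout replicate 3 was larger in differentiating than in stem and progenitor genes as a description, with medians of 0.22 for differentiating genes, 0.20 for those shared by all spermatogonia, 0.13 for surface molecules and 0.10 for stem and progenitor genes. It was the lowest array for 5 members (17.2%), Nanos3, Sall4, Lhx1, Utf1 and Dnmt3l, against 27.6% of all genes. Knockout replicate 2 was the lowest array for 8 of 29 members (27.6%), against 11.3% of all genes. Without knockout replicate 3, 10 members were higher and 19 lower, and the medians were -0.017 for stem and progenitor, -0.079 for differentiating, -0.019 for shared and -0.051 for surface genes. Gfra1, Uchl1, Kit and Thy1 were then lower without overlap (9.54% of all genes), and Lhx1, Pou5f1 and Dmrt1 higher (11.9%). Without knockout replicate 2, Id4, Pou5f1, Foxo1, Sohlh2, Dmrt1 and Ccnd1 were higher without overlap (15.8% of all genes) and 0 were lower (19% of all genes). Without wild-type replicate 1, 3 were higher (10.6%) and 2 lower (11.1%). Leaving out wild-type replicate 2 or 3 gave 3 higher each (9.76% and 15% of all genes) and 0 lower (9.14% and 14.1%). Without knockout replicate 1, 2 were higher (9.05%) and 0 lower (9.94%). Pou5f1 alone had an unadjusted p under 0.05 in limma without knockout replicate 1 (4.78% of all genes) or without wild-type replicate 1, 2 or 3 (5.52%, 4.67% and 9.54%).

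**Figure D3:**
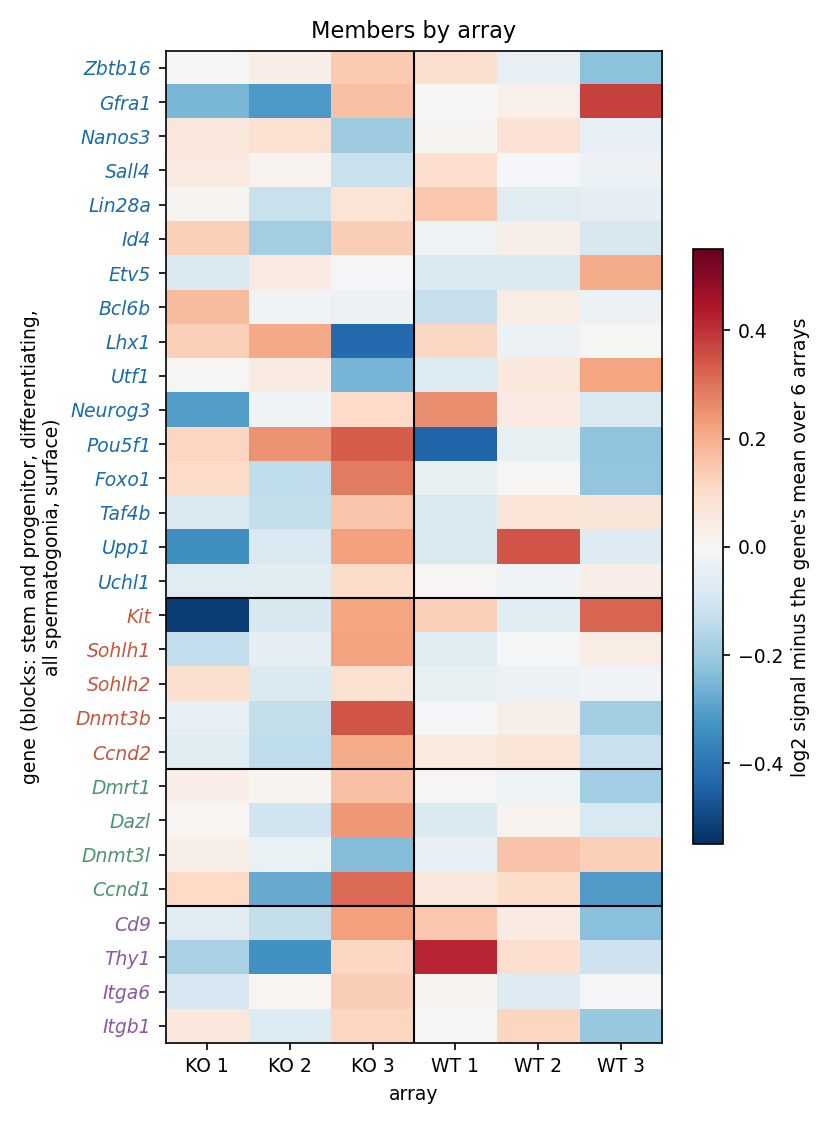
log2 signal of each tested member minus its mean over the 6 arrays (colour, red above and blue below), with genes down the page in blocks by role and the 3 knockout arrays left of the 3 wild-type arrays. The column of knockout replicate 3 is red for 22 of 29 genes, while neither genotype is red or blue throughout.

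Other cell types moved in the same array. In knockout replicate 3 the median marker, measured from its own 6-array mean, stood at -0.40 for Leydig cells, -0.28 for macrophages and leukocytes, -0.17 for endothelium and -0.14 for spermatids, and at 0.16 for peritubular myoid cells, 0.13 for Sertoli cells and 0.078 for meiotic cells. In the wild-type arrays these lists ran from 0.12 to 0.22 for Leydig cells, -0.036 to 0.20 for macrophages, 0.034 to 0.060 for endothelium, -0.021 to 0.091 for spermatids, -0.077 to -0.011 for myoid cells, -0.078 to 0.018 for Sertoli cells and -0.056 to 0.052 for meiotic cells. The median over all genes stayed between -0.016 and 0.0071 on every array. Signal was also summed per list, as multiples of the 75th percentile, and bright genes weigh most in such a sum. The 15 spermatid markers gave 2187 to 2489 in the knockout, against 2310 to 2451 in wild type. The 18 Sertoli markers gave 284 to 296 in the knockout, against 274 to 293 in wild type. Gene by gene, 13 of the 15 spermatid markers were lower in the knockout and 2 higher, with a median of -0.083 (log2). Of the 18 Sertoli markers, 12 were higher and 6 lower, with a median of 0.096, and 0 of either list passed in limma. The part of these cells in the spermatogonial readings was not tested.

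**Figure D4:**
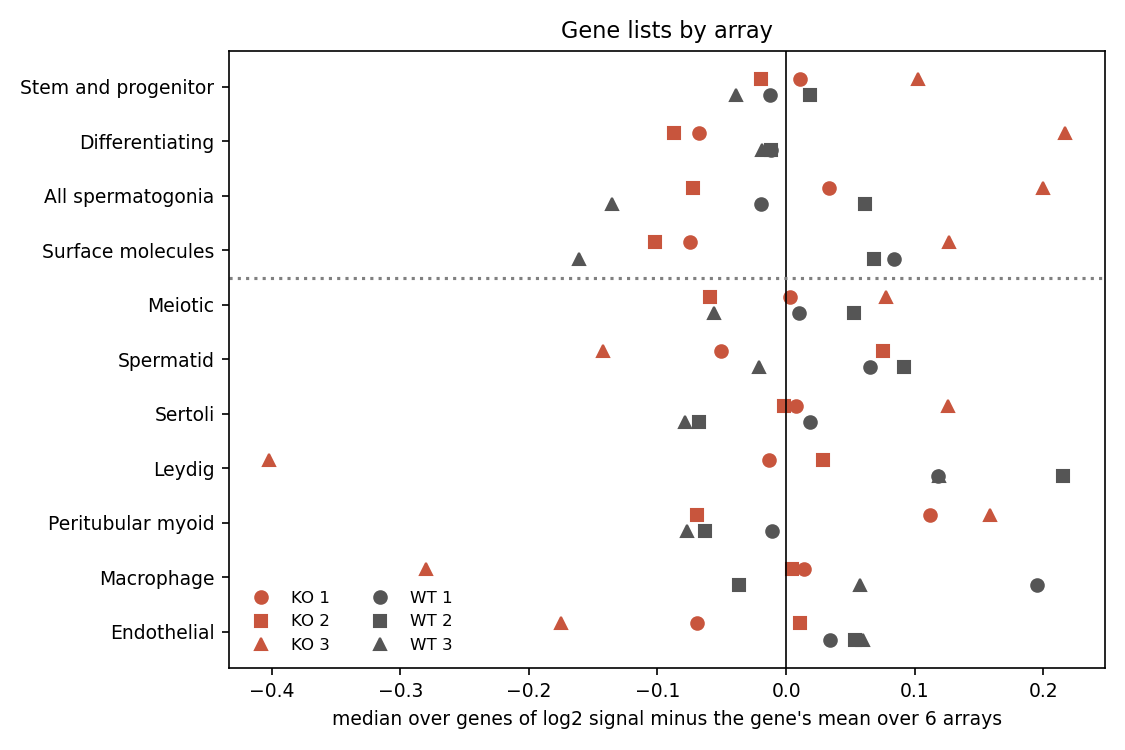
Median over the genes of each list of log2 signal minus the gene's mean over the 6 arrays (x axis), with 1 point per array, knockout above wild type in each row. The 4 lists of the 31 genes (above the dotted line) lie furthest right in knockout replicate 3, at 0.10 to 0.22. The peritubular myoid, Sertoli and meiotic lists also lie furthest right in that array, at 0.16, 0.13 and 0.078. The Leydig list lies furthest left there, at -0.40.

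Genes of the niche signals that reach these cells did not pass the test either. Of 20 genes of the stem cell niche, 19 had a tested probe, all of them ligands or receptors, 10 higher and 9 lower, with a median of 0.0025 (log2) and 0 passing in limma. The member with the lowest p was Fgf9, a fibroblast growth factor, which was higher in each knockout array than in any wild-type array. Its probe was dim, at 42.1, 36.4 and 39.1 in the knockout arrays, against 27.3, 31.1 and 28.2 in wild-type arrays. Its log2 signal was -4.37 ± 0.04 in the knockout, against -4.80 ± 0.11 in wild type (SD, n = 3 each), a difference of 0.43 ± 0.08 (SE; limma unadjusted p = 0.00110, adjusted p = 0.383). Over all genes tested, 6.71% were higher without overlap and 3.58% were higher at an unadjusted p under 0.05 in limma. The chemokine gene Cxcl12, the receptor Fgfr1 and the macrophage receptor Csf1r gave -0.38 ± 0.19, -0.16 ± 0.09 and -0.19 ± 0.11. Named for their role rather than their p, Gdnf itself gave 0.11 ± 0.08 and Kitl, the ligand of KIT, 0.027 ± 0.071.

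A further list of 20 spermatogonial genes, none among the 31, also had no gene that passed. Of its 18 tested genes 7 were higher and 11 lower, with a median of -0.020 (log2) and 0 passing in limma. Tspan8, a tetraspanin of spermatogonia with stem cell activity, was lower in each knockout array than in any wild-type array, at -2.45 ± 0.10 in the knockout, against -2.17 ± 0.10 in wild type (log2, SD, n = 3 each). Its difference was -0.28 ± 0.08 (SE; limma unadjusted p = 0.0153, adjusted p = 0.662). Tex13a was the other gene of this set at an unadjusted p under 0.05, with -0.32 ± 0.12 (adjusted p = 0.662) and no overlap. These 2 of 18 genes stand beside 7.48% of all genes at that p (3.9% lower) and 12.9% without overlap (6.22% lower). Measured from its own 6-array mean, the median gene of this list was at -0.12, -0.079 and 0.11 (log2) in knockout replicates 1, 2 and 3, against 0.12, 0.12 and -0.14 in wild-type replicates 1, 2 and 3, so knockout replicate 3 was the third of the 6 arrays here and not the highest. Eomes and Pou3f1, transcription factors of stem cell subsets, gave -1.06 ± 0.52 and -0.24 ± 0.11, and Eomes was well above background on only 2 of 3 knockout arrays.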

How the data were processed

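RNA of whole testis (100 ng) was amplified and labelled with Cy3, per the labels' protocols. Per the file headers, the authors' deposited scanner files hold spot intensity on a linear scale from Agilent Feature Extraction 10.7.3.1, background-subtracted and spatially detrended, with probe positions on mm9. The authors' deposited value table holds the same intensity scaled to a median of 200 per array, linear and uncentred, and served as an alternative. No saturated spots were found. The scanner's 0 or 1 flags set detection and outliers.

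Log2 of the processed signal was taken, outlier spots (117 to 149 per array) were left out, replicate spots were averaged per probe, and each array was scaled by subtracting its 75th percentile. Between 70.6% and 76.0% of non-control spots were well above background. Precision is limited by having 3 arrays per genotype. Genes were named by the files, and matching to RefSeq names added 0 member probes. Knockout and wild type were compared with limma 3.58.1 under R 4.3.3 (lmFit, then eBayes, two-sided) over the 6 arrays, with Benjamini-Hochberg adjustment over all genes, and separately over all probes. The code was tested on simulated data. An exact permutation test of 3 arrays against 3 cannot go below p = 0.1. Members, lists and rules were chosen with earlier results of these data known. Every member could be named, as could Gipr and the 4 genes of lowest p in the other lists. Gdnf and Kitl, and the defining markers given as detected, were named outside that rule.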

Additional observations from a re-analysis of the deposited data

How the results depend on the processing

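Over 16 alternatives (normexp background, quantile normalization, the authors' value table, no filter or a stricter filter on dim probes, the mean of a gene's probes, RefSeq names, eBayes with trend and robust, array weights, the replicate block and 6 fits that each left out an array) 0 members passed in limma, with a lowest adjusted p of 0.216. Of the 29 members, 12 kept their direction in all 16 and 17 did not in at least 1. Leaving out an array moved the median difference (log2) of stem and progenitor genes between -0.034 and -0.0042, of differentiating genes between -0.079 and 0.067, of shared genes between -0.019 and 0.17 and of surface molecules between -0.053 and 0.068. With array weights the differentiating and surface medians were -0.045 and -0.030. Scaling moved the median of all genes by less than 0.1. Without a filter, Ret and Nanos2 entered and 0 members passed. The knockout and wild-type arrays share replicate numbers, and deviations of same-numbered arrays correlated at 0.052, -0.049 and -0.029. Such correlations cannot show whether same-numbered animals were kept or processed together, so pairing was left undecided. With the replicate block 0 members passed, and Gfra1 joined Pou5f1 at an unadjusted p under 0.05. The slide could not serve as a block, since all arrays share it. Gipr passed in all 16 alternatives, from -2.56 to -2.05. Signal that is low or near background limits what can be said of Ret, Nanos2, Gfra1, Taf4b and Upp1, and of Fgf9 among the niche genes.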
